A study of Mus musculus with 8 samples.

Results

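The keratin genes are the protein-coding mouse genes whose symbol is Krt followed by a number, and the GENCODE annotation of mm10 held 53 of them among 21938 protein-coding genes on the assembled chromosomes. Genes of keratin-associated proteins (Krtap) and of Krtcap proteins were left out by the rule, as were the pseudogenes Krt74 and Krt8-ps. Of the 53 genes, 28 encode type I keratins and 25 encode type II keratins. They lie in a cluster of 27 genes on chromosome 11 and a cluster of 26 genes on chromosome 15, and Krt18 is the type I gene that sits at the end of the chromosome 15 cluster. The series profiled H3K56ac, an acetylated lysine in the core of histone H3, by ChIP-seq in freshly isolated muscle stem cells (MuSCs) of C57BL/6 mice. The paper describes the Control MuSCs as wild type, although elsewhere it defines the controls of Sirt6mKO mice as Sirt6 fl/fl without Pax7-ICNCre. The Sirt6mKO animals carried Pax7-ICNCre and Sirt6 fl/fl, so that Cre driven by the Pax7 promoter deletes the gene of the deacetylase SIRT6 in MuSCs and their descendants. The labels list 2 H3K56ac libraries and 2 input libraries of each genotype, 8 in all. The data analysed here are a single merged list of 105600 H3K56ac intervals, called peaks below, which names neither genotype nor replicate. It therefore says where a peak was called in MuSCs without saying in which genotype. No comparison of Control with Sirt6mKO, no strength of a peak and no spread between replicates can be had from it. The paper reports a global increase of H3K56ac peaks in Sirt6mKO MuSCs, so a peak in the list need not be present in Control cells. The list also gives no sequencing depth.

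Keratins are the intermediate filament proteins of epithelial cells. A filament is built from pairs of 1 type I and 1 type II chain, and the chains are expressed in fixed partners, such as KRT8 with KRT18 in simple epithelia, KRT5 with KRT14 in the basal layer of the epidermis and KRT1 with KRT10 in its upper layers. Other members form the hard filaments of hair and nail or the sheath around the growing hair. Muscle fibers build their filaments chiefly from desmin, although keratins such as KRT8 and KRT19 have also been described in striated muscle fibers.

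Keratin genes carried few H3K56ac promoter peaks in the merged MuSC list. A promoter peak was a peak that overlapped, by at least 1 bp, the 3 kb on either side of any annotated transcription start site (TSS) of the gene. Of the 53 keratin genes, 7 had one, or 13.2% (Wilson 95% interval 6.55 to 24.8%). Of all protein-coding genes, 14872 had one, or 67.8%. The interval covers counting error only, because genes are not replicates of the cells. The 7 genes were Krt222, Krt10, Krt80, Krt1, Krt79, Krt8 and Krt18. When a peak had to cover a TSS itself, 3 keratin genes remained (5.66%), namely Krt222, Krt10 and Krt80, against 62.1% of all protein-coding genes. A peak anywhere in the gene body was found in 7 keratin genes (13.2%) and in 69.1% of all protein-coding genes. By type the counts were 3 of 28 (10.7%, interval 3.71 to 27.2%) for type I and 4 of 25 (16%, interval 6.40 to 34.7%) for type II, with intervals that overlap.

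**Figure D1:**
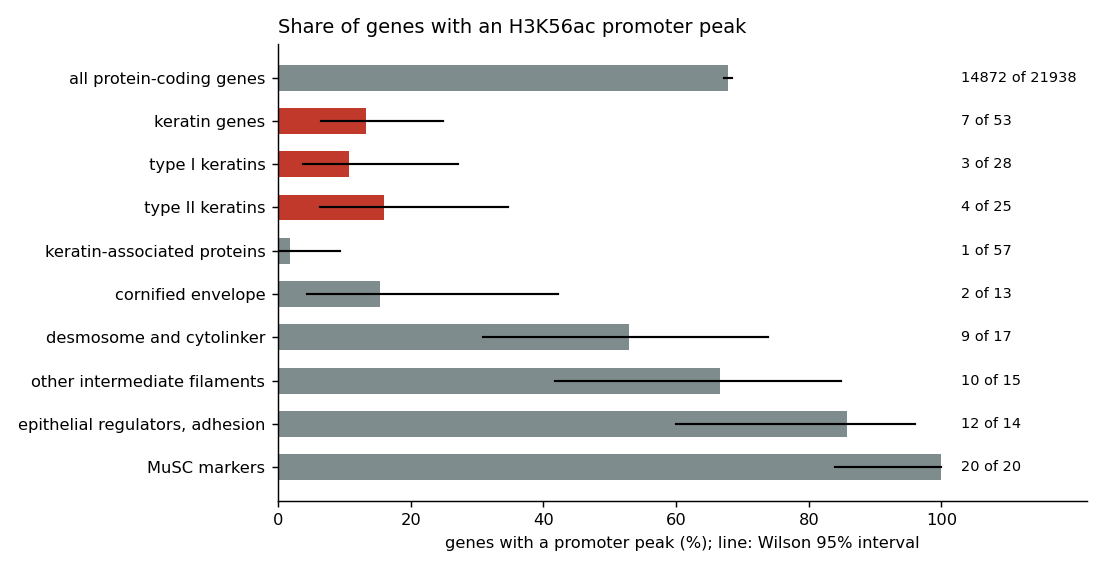
Share of genes with an H3K56ac promoter peak, in percent on the x axis, for all protein-coding genes, the keratin genes (red, with both types) and lists of related genes (grey). Bars start at 0, lines are Wilson 95% intervals for counting error, and the counts stand at the right, from 14872 of 21938 for all genes and 7 of 53 for keratins to 20 of 20 for MuSC markers.

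The sequences at the starts of these genes show what lies under the peaks. The 250 bases before the 5′ end of the gene record, read from GRCm38.p6, are given in the direction of transcription for the 3 genes whose start was covered by a peak and for a pair of genes far from any peak, Krt5, the classical basal keratin, and Krt75, the member farthest from a peak. Capitals mark CG dinucleotides and, where present, TATAAA at the place of a TATA box. All 5 genes lie on the minus strand. The windows are chr11:99244086-99244335 for Krt222, chr11:99389365-99389614 for Krt10, chr15:101370163-101370412 for Krt80, chr15:101712899-101713148 for Krt5 and chr15:101573905-101574154 for Krt75.
Krt222: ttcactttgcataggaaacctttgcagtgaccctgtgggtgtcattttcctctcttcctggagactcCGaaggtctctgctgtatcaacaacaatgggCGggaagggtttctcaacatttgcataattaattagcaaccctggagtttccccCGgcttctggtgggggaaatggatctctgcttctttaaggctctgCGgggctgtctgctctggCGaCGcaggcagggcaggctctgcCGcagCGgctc
Krt10: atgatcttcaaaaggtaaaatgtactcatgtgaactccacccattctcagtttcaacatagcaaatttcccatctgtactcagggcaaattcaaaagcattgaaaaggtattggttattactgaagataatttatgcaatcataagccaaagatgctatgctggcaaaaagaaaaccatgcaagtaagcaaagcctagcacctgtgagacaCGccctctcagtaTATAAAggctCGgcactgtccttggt
Krt80: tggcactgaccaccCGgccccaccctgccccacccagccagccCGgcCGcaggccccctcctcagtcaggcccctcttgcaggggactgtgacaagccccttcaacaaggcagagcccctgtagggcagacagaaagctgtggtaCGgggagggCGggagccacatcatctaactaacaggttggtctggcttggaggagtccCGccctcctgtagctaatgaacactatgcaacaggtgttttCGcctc
Krt5: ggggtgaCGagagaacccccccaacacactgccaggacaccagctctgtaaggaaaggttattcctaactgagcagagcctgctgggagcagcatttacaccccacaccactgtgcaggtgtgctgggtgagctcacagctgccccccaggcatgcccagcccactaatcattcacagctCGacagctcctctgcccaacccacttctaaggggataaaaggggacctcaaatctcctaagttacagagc
Krt75: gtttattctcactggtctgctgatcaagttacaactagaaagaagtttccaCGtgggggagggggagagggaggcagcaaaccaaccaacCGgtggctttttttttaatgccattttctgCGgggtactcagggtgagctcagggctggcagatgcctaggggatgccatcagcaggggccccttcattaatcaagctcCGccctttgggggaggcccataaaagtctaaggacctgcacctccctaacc
The peak covered 68.4% of the Krt222 window and 100% of the Krt10 and Krt80 windows. The Krt5 window was 59332 bp and the Krt75 window 187587 bp from the nearest peak. Krt222 had 8 CG dinucleotides in the window, Krt80 had 7, Krt75 had 4, and Krt10 and Krt5 had 2 each. In Krt10 the letters TATAAA began 26 bases before the start.

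Krt10 (ENSMUSG00000019761.10, chr11:99385254-99389364, minus strand), the type I keratin of the upper epidermal layers, had the broadest keratin peak. The peak at chr11:99382424-99389776 was 7353 bp wide, ran from 412 bp upstream of the 5′ end past the 3′ end of the gene, and covered all 8 exons of the gene. It also covered the TSS of Gm11940, an antisense RNA gene. Over the 14872 genes that had a promoter peak, the widest one had a median width of 3430 bp with quartiles of 2242 and 4945 bp, and 90.7% of the genes had a narrower one than Krt10. Krt10 was the only keratin gene above that upper quartile.

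Krt80 (chr15:101347444-101370162, minus strand), a type II keratin reported in several epithelia and hair follicles, had a pair of peaks at its start. The first, chr15:101366004-101370566, was 4563 bp wide, covered the first exon and part of the first intron, and covered 3 of the 4 annotated TSSs of the gene together with the TSS of the microRNA gene Mir1941. The second, chr15:101370676-101375583, was 4908 bp wide, began 514 bp upstream of the 5′ end and covered the TSS of the antisense gene Gm35853. The wider of these exceeded the widest promoter peak of 74.6% of the genes. Krt222 (chr11:99232761-99244085, minus strand), an atypical type I keratin at the edge of its cluster, had 1 peak of 889 bp at chr11:99243368-99244256 over its first exon, and 5.84% of the genes had a narrower one.

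At the other 4 genes the peak did not reach the start of the gene. In Krt8 (chr15:101996698-102004482, minus strand) a peak of 1182 bp at chr15:102002424-102003605 lay within intron 1, from 877 to 2058 bp downstream of the TSS. In Krt18 (chr15:102028180-102032027, plus strand) a peak of 638 bp at chr15:102025684-102026321 lay in the intergenic sequence from 1859 to 2496 bp upstream of the TSS. KRT8 and KRT18 are partners in the same filament, and their genes are neighbours, so each gene of the pair had a nearby peak while neither TSS was covered. The central 200 bases of both peaks are shown in the direction of each gene's transcription with CG in capitals, since these are the marked sequences nearest to the simple epithelial pair, at chr15:102002915-102003114 for Krt8 and chr15:102025903-102026102 for Krt18.
Krt8: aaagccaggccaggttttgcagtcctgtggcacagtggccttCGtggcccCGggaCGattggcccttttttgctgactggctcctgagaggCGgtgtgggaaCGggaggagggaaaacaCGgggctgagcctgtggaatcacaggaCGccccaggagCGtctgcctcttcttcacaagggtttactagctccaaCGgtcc
Krt18: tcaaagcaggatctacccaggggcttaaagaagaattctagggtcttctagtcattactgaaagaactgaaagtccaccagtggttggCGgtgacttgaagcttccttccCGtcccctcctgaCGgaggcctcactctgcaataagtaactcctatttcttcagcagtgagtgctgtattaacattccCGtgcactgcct
The Krt8 stretch held 9 CG dinucleotides and the Krt18 stretch held 4.

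Krt1 and Krt79 were counted because of short transcripts near their 3′ ends. Krt1, the type II partner of Krt10, had a peak of 907 bp at chr15:101845584-101846490 over exons 8 and 9 of its 9 exons, 4304 to 5210 bp downstream of the 5′ end. It lay 104 bp from the TSS of a shorter transcript, which is annotated as a retained intron and not as coding. Krt79, a keratin known from the sebaceous duct region of the hair follicle, had a peak of 821 bp at chr15:101929768-101930588 over exons 8 and 9 of 9, 9736 to 10556 bp downstream of the 5′ end and 383 bp from the TSS of another retained intron transcript. The same peak was 5033 bp upstream of the 5′ end of Krt4, the type II keratin of the oral and esophageal mucosa, so it was nearer to the start of Krt4 than to that of Krt79. With TSSs of protein-coding transcripts only, Krt1 and Krt79 dropped out, 5 keratin genes had a promoter peak, and type II counted 2 of 25. The widest promoter peaks of the 7 genes ranged from 638 to 7353 bp with a median of 907 bp. Those of Krt1, Krt79, Krt8 and Krt18 were wider than in 6.08%, 4.98%, 9.41% and 2.62% of the genes.

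**Figure D2:**
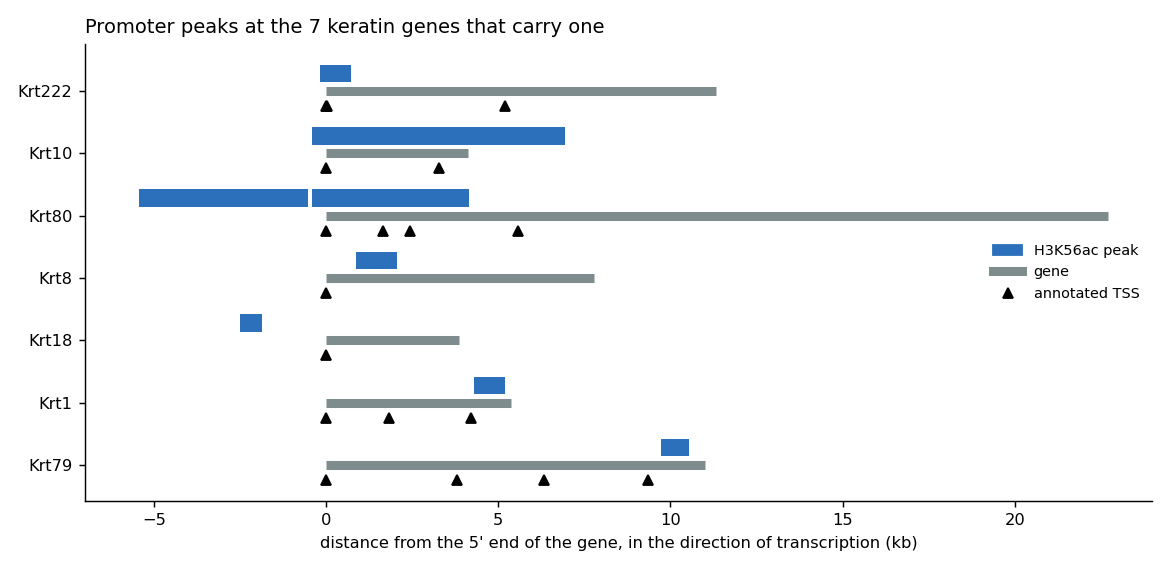
Promoter peaks at the 7 keratin genes that carry one, with the distance from the 5′ end of the gene in kb, in the direction of transcription, on the x axis. Blue bars are peaks, grey bars the genes and triangles the annotated TSSs. The peaks cover the 5′ end in Krt222, Krt10 and Krt80, lie 877 bp or more into Krt8, lie upstream of Krt18, and sit at the 3′ end of Krt1 and Krt79.

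The 46 genes without a promoter peak were mostly far from any peak. Measured from the 5′ end of the gene record, the distance to the nearest peak had a median of 43.2 kb over the 53 keratin genes, with quartiles of 21.8 and 87.2 kb. Over all protein-coding genes the median was 0 and the upper quartile 23.0 kb. Of the keratin genes, 43 (81.1%) had a 5′ end more than 10 kb from any peak, against 29.7% of all protein-coding genes. More than 50 kb separated 25 of the 53 keratin genes from a peak, against 4315 (19.7%) of all protein-coding genes. More than 100 kb separated 11 of the 53, against 3296 (15%) of all protein-coding genes. These 11 were Krt32, Krt35, Krt36, Krt13, Krt15 and Krt19 of type I and Krt83, Krt84, Krt82, Krt90 and Krt75 of type II. Of all protein-coding genes, 7066 lacked a promoter peak. The shares above therefore do not show that the 46 keratin genes lay farther from a peak than other genes without one. Krt75, a keratin of the companion layer of the hair follicle, was farthest at 187.6 kb. The nearest genes outside the 3 kb limit were Krt72 (4965 bp from a TSS), Krt4 (5033 bp) and Krt77 (9283 bp) in the type II cluster. At Krt72 the TSS was an internal one, and the peak lay beyond the 3′ end, 12732 bp from the 5′ end. In the type I cluster the nearest genes outside the limit were Krt28 (7521 bp, to the peak over Krt10), Krt42 (13857 bp) and Krt20 (21843 bp). Krt77, an epidermal type II keratin, was the only one of the 46 with a peak inside the gene, of 922 bp at chr15:101859392-101860313. The gene just inside the limit was Krt18, at 1859 bp.

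By the role of the protein, the genes with a promoter peak fell into 3 groups, whose small counts stand beside 67.8% of all protein-coding genes. Among the keratins of simple epithelia, which line ducts and internal organs, Krt8 and Krt18 had one and Krt7, Krt19, Krt20 and Krt23 did not (2 of 6). Krt7 lay 24.7 kb and Krt19 135.1 kb from the nearest peak, so within this group the partners Krt8 and Krt18 stood nearest to a peak. Among the keratins of the upper epidermis, Krt1 and Krt10 had one and Krt2, Krt9 and Krt77 did not (2 of 5). Krt1 counted only through the retained intron transcript near its 3′ end. Krt77 had a peak inside the gene but none within 3 kb of a TSS. Krt9, the keratin of palm and sole skin, was 90.5 kb from a peak. The remaining members, with no single role assigned, held Krt222, Krt79 and Krt80 (3 of 8), where Krt79 also counted only through a retained intron transcript.

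The other 5 role groups had no promoter peak. The basal keratins Krt5, Krt14 and Krt15, which mark the dividing layer of stratified epithelia, lay 59.6, 76.2 and 147.8 kb from the nearest peak (0 of 3). The keratins induced in wounded or stressed epidermis, Krt6a, Krt6b, Krt16 and Krt17, lay 22.7 to 92.2 kb away (0 of 4). The keratins of mucosa and cornea, Krt4, Krt12, Krt13 and Krt76, lay 5.03 to 134.9 kb away (0 of 4). None of the 8 keratins of the inner root sheath and companion layer and none of the 15 of hair and nail had a promoter peak. In hair and nail keratins the nearest peak was 29.5 kb away at Krt33a and 164.3 kb at Krt82, with a median of 82.4 kb, the longest median of the 8 groups. Counting error alone leaves these counts of 0 a Wilson upper limit of 20.4% in the 15 hair and nail genes, 32.4% in the inner root sheath group and 56.1% in the 3 basal genes.

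**Figure D3:**
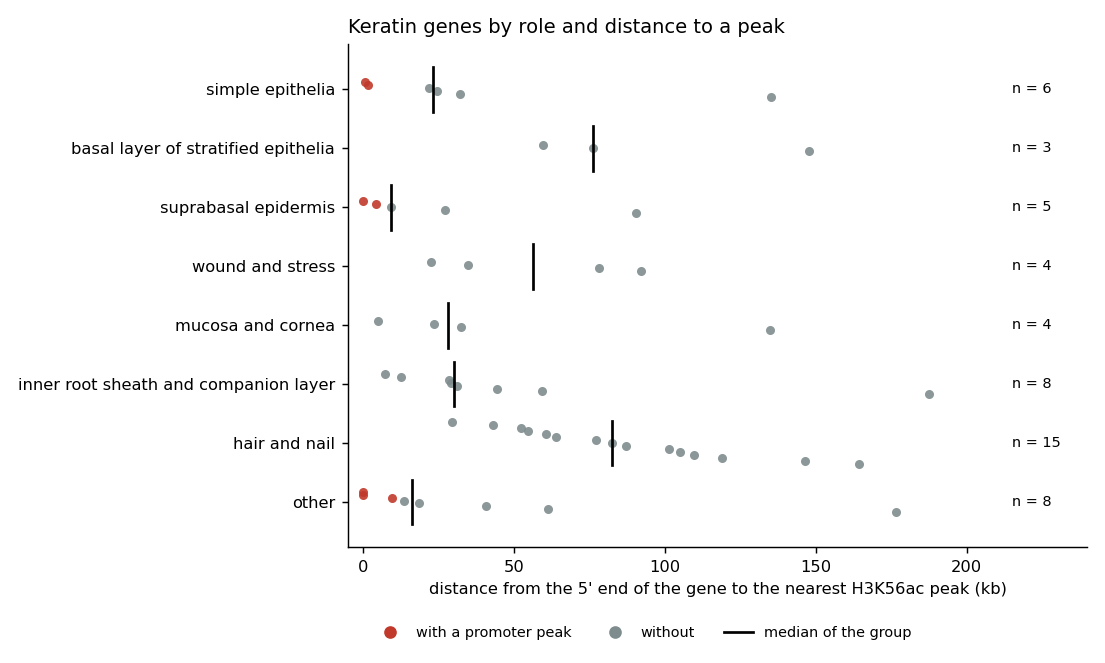
Distance from the 5′ end of each keratin gene to the nearest H3K56ac peak, in kb on the x axis, by role of the protein on the y axis. Each point is 1 gene (red with and grey without a promoter peak) and each black line is the median of its group, which runs from 9.39 kb in the upper epidermis to 82.4 kb in hair and nail.

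The clusters themselves were sparse in peaks, and their flanks were covered more than the assembly as a whole. The type I cluster (chr11:99232761-100269871, 1037 kb) held 7 peaks, or 6.75 per Mb, which covered 1.24% of it. The type II cluster (chr15:101347444-102032027, 684.6 kb) held 17 peaks, or 24.8 per Mb, which covered 4.47%. Over the whole assembly the list had 38.7 peaks per Mb and covered 6.75%. In the 500 kb on either side, 82 peaks to the left and 59 to the right of the type I cluster covered 31.0 and 22.3% of the sequence, and 60 and 71 peaks around the type II cluster covered 19.2 and 23.7%. In the flanks, 13 of 14 and 20 of 21 protein-coding genes beside the type I cluster and 8 of 10 (80%) and 19 of 24 (79.2%) beside the type II cluster had a promoter peak, against 67.8% of all protein-coding genes, so the gene counts of the type II flanks are close to that share. Neither cluster held an unknown base in the assembly, but reads with more than 1 alignment were discarded before peak calling. How this affected peaks at near-identical genes in the clusters was not tested.

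On 3 of the 4 sides the first protein-coding gene outside the keratins had a promoter peak. Left of Krt222 lies Smarce1, a subunit of the SWI/SNF chromatin remodelling complex, with 2 promoter peaks of which the wider was 4092 bp. Right of Krt42 lies Eif1, a translation initiation factor, with a promoter peak of 3440 bp. Right of Krt18 lies Eif4b, another translation initiation factor, with 3 promoter peaks and a widest of 8240 bp. Left of Krt80 the first gene, 6030408B16Rik, had none and lay 7.63 kb from a peak. Inside the clusters, the protein-coding genes whose symbols are neither Krt with a number nor Krtap had no promoter peak. These were 18 genes in the type I cluster and 3 in the type II cluster (Gm49425, Gm5414 and Gm5478). Of all protein-coding genes, 67.8% had one. The 18 and 3 genes were set apart by symbol alone. Whether they encode proteins related to keratins or Krtap proteins was not examined. The 23 Krtap genes of the type I cluster were not among them.

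**Figure D4:**
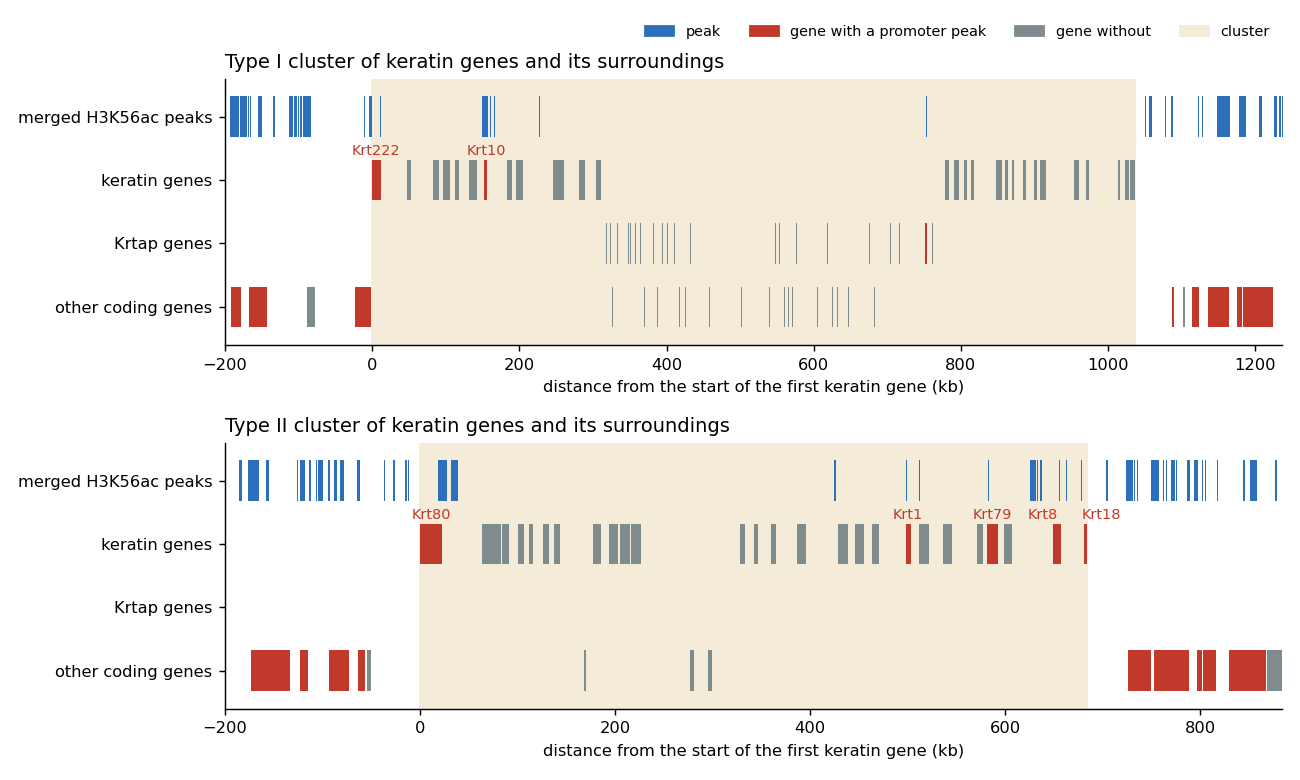
Maps of the type I cluster (top) and the type II cluster (bottom), with the distance from the start of the first keratin gene in kb on the x axis and 200 kb on either side of the shaded cluster. Rows show merged peaks (blue), keratin genes, Krtap genes and other protein-coding genes (red with and grey without a promoter peak). Bars narrower than 1.2 kb are drawn at 1.2 kb. The 7 peaks of the type I cluster leave gaps of 524.1 and 297.0 kb, and the 17 of the type II cluster leave a gap of 386.2 kb.

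Most keratin genes fell into a few long stretches without a peak. In the type I cluster a stretch of 524.1 kb held Krt23, Krt39, Krt40, 21 Krtap genes and 18 other protein-coding genes. A stretch of 297.0 kb held 1 Krtap gene and 15 keratin genes from Krt33a to Krt42, the basal and wound keratins of type I among them. Another stretch of 138.2 kb held Krt24 to Krt28, and one of 61.4 kb held Krt12 and Krt20. In the type II cluster a stretch of 386.2 kb held 14 keratin genes from Krt7 to Krt71, among them the hair keratins of type II and Krt5, Krt6a and Krt6b. It also held 3 other protein-coding genes. Stretches of 71.9 kb (Krt72, Krt73 and Krt2) and 69.5 kb (Krt77, Krt76 and Krt4) followed. Keratin genes were placed in a stretch by their 5′ end. Krt77 therefore counts in the last one, although the peak that bounds this stretch lies inside the gene. Of 103473 gaps between neighbouring peaks on the autosomes, 597 (0.577%) were longer than the longest in the type I cluster and 811 (0.784%) longer than the longest in the type II cluster. The 297.0 kb stretch was exceeded by 1.03% of the gaps. These shares describe where the gaps rank, and the clusters were chosen with their low peak density known.

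A single peak of 1854 bp at chr11:99984826-99986679 separated both long stretches of the type I cluster. It covered the TSS of Krtap16-1, a keratin-associated protein of the hair shaft, which was the only 1 of 57 Krtap genes with a promoter peak (1.75%, interval 0.310 to 9.29%). The Krtap genes, whose products embed the hair keratin filaments, had a median distance of 118.2 kb from the 5′ end to a peak.

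Counts for related genes are read against the 67.8% of all protein-coding genes with a promoter peak. Of the 15 other intermediate filament genes, 10 had one (66.7%, interval 41.7 to 84.8%), which is close to the share of all genes. Vim (vimentin) had a widest promoter peak of 10760 bp, Des (desmin) of 9745 bp, Nes (nestin) of 4935 bp, and the lamin genes Lmna and Lmnb1 of 10699 and 12592 bp. Synm (5165 bp), Lmnb2 (3096 bp), Bfsp1 (2277 bp), Prph (1120 bp) and Gfap (684 bp) also had one. The 5 without one were Nefl, Nefm, Nefh, Ina and Bfsp2. Of 17 genes for desmosomal and linker proteins, which anchor keratin filaments, 9 had a promoter peak (52.9%), and the interval of 31.0 to 73.8% holds the share of all genes. They were Jup (14788 bp), Dst (14274 bp), Plec (10046 bp), Eppk1 (5038 bp), Ppl (4284 bp), Pkp4 (2531 bp), Pkp3 (2350 bp), Dsp (1983 bp) and Pkp2 (1964 bp). Of the desmosomal cadherins, Dsg1a, Dsg2, Dsg3, Dsc1, Dsc2 and Dsc3 had none and lay 108.9 to 664.7 kb from a peak. Pkp1 and Evpl also had none.

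The cornified envelope, the protein shell of the outermost epidermal cells, had a promoter peak at 2 of 13 genes (15.4%, interval 4.33 to 42.2%), Lor and Tgm1, which is below the 67.8% of all protein-coding genes, while Flg, Ivl and the Sprr genes had none. For epithelial regulators and adhesion it was 12 of 14 genes (85.7%), with an interval of 60.1 to 96.0% that holds the share of all genes. Among them were Trp63 (6 promoter peaks, widest 4361 bp), Klf4 (3748 bp) and Epcam (1719 bp), while Cdh1 and Ehf had none.

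Markers were set against the labelled cell type, again beside 67.8% of all protein-coding genes. All 20 MuSC marker genes had a promoter peak that covered a TSS, and Pax7, which marks these cells, had one of 21301 bp. Among markers of other cells that muscle tissue holds, a promoter peak was found at 7 of 10 epithelial (70%), 4 of 7 endothelial (57.1%), 5 of 6 fibro-adipogenic (83.3%) and 6 of 6 myofiber genes. Counting intervals of the first 3 lists hold the share of all genes and that of the myofiber list starts at 61.0%, so these counts do not bear on cell type. Of the leukocyte markers, 1 of 7 had one (14.3%, interval 2.57 to 51.3%). The epithelial markers without one were Cdh1, Cldn4 and Krtcap3. Per the study's methods, Sca1+, CD45+ and CD31+ cells were depleted with beads before Integrin-α7+/CD34+ or reporter-positive cells were sorted. What other cells contributed to the peaks at keratin genes was not tested.

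Keratin gene starts were low in CpG. Over the 500 bases on either side of the 5′ end, the ratio of observed to expected CpG had a median of 0.302 in keratin genes and 0.552 in all protein-coding genes. Its median was 0.693 over all genes with a promoter peak and 0.175 over those without, so the keratin median lay between. Within the family the genes with and without a promoter peak overlapped. The 7 genes had a median of 0.357 and ranged from 0.238 in Krt79 to 0.546 in Krt18, and the 46 others had a median of 0.300 and ranged from 0.0779 in Krt7 to 0.583 in Krt87. Krt87, a hair keratin, had the highest ratio of all members and lay 52.5 kb from a peak. Krt10, with the broadest peak, ranked 23rd of 53 at 0.346, and Krt80 ranked 34th at 0.277.

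**Figure D5:**
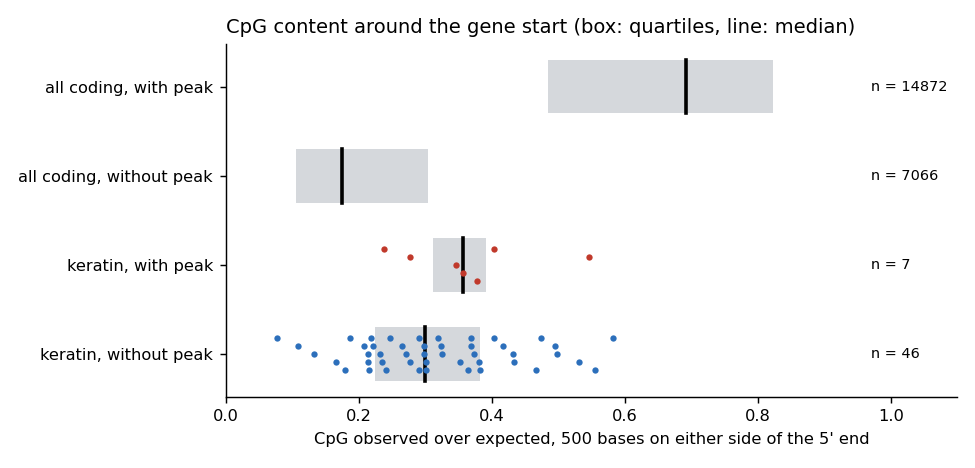
Ratio of observed to expected CpG in the 500 bases on either side of the 5′ end (x axis) for all protein-coding genes with and without a promoter peak and for keratin genes with (red) and without (blue) one. Boxes span the quartiles, black lines are medians and points are single keratin genes. Both keratin medians, 0.357 and 0.300, lie between those of all genes with (0.693) and without (0.175) a peak.

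The letters of a TATA box stood before many keratin starts. TATAAA on the sense strand, beginning 40 to 20 bases before the 5′ end, was present in 16 of 53 keratin genes (30.2%) and in 2.42% of all protein-coding genes. By type it was 12 of 28 (42.9%) for type I and 4 of 25 (16%) for type II. It occurred in Krt25, Krt26, Krt27, Krt28 and Krt71 of the inner root sheath, in the hair keratins Krt31, Krt33a, Krt34, Krt35, Krt83 and Krt86, and in Krt12, Krt17, Krt20 and Krt76. Among the 7 genes with a promoter peak only Krt10 held it. In the window from 250 bases before to 50 bases after the 5′ end, GGGCGG on either strand, which itself contains a CG, was found in 6 keratin genes (11.3%) and in 43% of all protein-coding genes. TGANTCA, which reads alike on both strands, was found in 4 (7.55%, against 6.91% of all), namely Krt4, Krt13, Krt14 and Krt15. GCCNNNGGC, also alike on both strands, was found in 12 (22.6%, against 18.1%). These are matches of letters in 1 fixed window and were not examined for binding.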

How the data were processed

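The series holds 8 ChIP-seq libraries of freshly isolated MuSCs in 4 groups of 2 (H3K56ac and input, Control and Sirt6mKO). Per the labels and the study's methods, Sca1+, CD45+ and CD31+ cells were depleted, Integrin-α7+/CD34+ or reporter-positive cells were sorted, and the authors trimmed reads with Trim Galore, aligned them to mm10 with bowtie, discarded reads with more than 1 alignment, removed duplicates using Picard, called peaks with MACS2, removed blacklisted regions and merged peaks with GenomicRanges. The deposited file is the merged interval list. The score column that the authors deposited is 0 in every row and holds no measurement, and the list has 0 columns per sample, so the comparison of Sirt6mKO with Control planned for counts was not run. Which libraries entered the merge is not given in the sources used here. Merging widens and joins intervals, and reads from near-identical genes with more than 1 alignment were lost before peak calling.

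Positions were counted from 1 on GRCm38 (mm10) with GENCODE vM21. Members and gene lists, keratin roles among them, were chosen with earlier results of these data known, so counts are descriptive, with no test, and are read against the share of all protein-coding genes. Named genes were the members with a promoter peak, the 3 nearest without one in each cluster, the neighbours of the clusters and the members of the lists. Other keratins with and without a motif or at an extreme were named after their values were seen. Clusters were runs of keratin genes less than 1 Mb apart. Wilson 95% intervals cover counting error only. Sequences and CpG ratios were read from the GRCm38.p6 genome at the GENCODE 5′ end. The RefSeq promoter table held 36 of 53 members (67.9%), under the limit of 80%, so the planned CpG check on it is void. The interval functions were tested on simulated data. Python 3.11.15, numpy 2.4.6, scipy 1.17.1 and matplotlib 3.10.9 were used. Alternatives were promoters of 1 or 5 kb, a peak covering a TSS, coding transcripts, the gene record, peaks of at least 500 bp, joined peaks, wider clusters and other CpG windows.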

Additional observations from a re-analysis of the deposited data

How the results depend on the processing

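The number of keratin genes with a promoter peak was 6 with a window of 1 kb (without Krt18), 8 with 5 kb (with Krt72), 5 with TSSs of coding transcripts or with the gene record (without Krt1 and Krt79), and 7 with peaks of at least 500 bp or with peaks under 1 kb apart joined. It fell to 3 when a peak had to cover a TSS. Krt72 entered at 5 kb through an internal TSS, with the peak beyond its 3′ end. The type II count fell from 4 to 1 when a peak had to cover a TSS, and to 2 with coding transcripts and 2 with the gene record, while the type I count was 2 or 3 throughout. The share of all protein-coding genes moved from 67.8% to 65.4% (1 kb), 69.5% (5 kb), 62.1% (covering a TSS), 66.9% (coding transcripts), 64.9% (gene record) and 67.1% (at least 500 bp). Widening the type I cluster by 50 kb on either side, which adds part of the marked flanks, raised the covered share from 1.24 to 2.31%, and that of the type II cluster was 4.33 to 5.64% under its alternatives. The median CpG ratio of keratin genes with a promoter peak less that of those without was -0.0863 in the RefSeq windows, where the check is void, and 0.0576 over 500 bases on either side of the GENCODE start. It was 0.0397 from 250 bases before to 50 after that start, a window chosen after seeing the data. The RefSeq windows hold fewer genes, and the cause of the change of sign was not tested. No paired analysis was possible because values per sample are lacking in the merged list, and for the same reason no replicate could be left out. The list gives no depth, so a gene without a peak may carry H3K56ac below what the peak caller could detect.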

Other observations

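Several peaks of both clusters lay away from keratin promoters. In the type I cluster 5 of 7 peaks were neither a keratin promoter peak nor inside a keratin gene. Of these, 1 was the promoter peak of Krtap16-1, and 3, 481 to 814 bp wide, lay 3053 to 8725 bp upstream of Krt10. In the type II cluster 10 of 17 peaks were of this kind. Beyond the promoter peaks of Krt80, 4 more peaks began 8768 to 12017 bp upstream of its 5′ end, the widest of 4140 bp at chr15:101382179-101386318. A further 4 peaks stood between Krt78 and Krt8 from 101973081 to 101985114 on chromosome 15. The widest of these, 6104 bp at chr15:101973081-101979184, was the widest peak of the type II cluster and lay 18794 bp from the nearest start, that of Krt78. Krt74, annotated in mouse as a pseudogene, lay 8976 bp from the nearest peak.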
